A study of Homo sapiens with 6 samples.

Results

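The nuclear genes of oxidative phosphorylation were taken as every row whose gene symbol begins with NDUF, UQCR, COX4 to COX8 or ATP5, or is SDHA, SDHB, SDHC or SDHD. The rule found 99 of the 33095 rows in each of the authors' deposited tables. Of these, 83 rows are subunits of complexes I to V, 8 are complex I assembly factors (NDUFAF1 to NDUFAF8), 1 is the ATP synthase inhibitor ATP5IF1, and 7 are copy genes, readthrough rows or antisense or divergent RNAs. The members lie on 22 chromosomes and held 0.912% of the summed mean normalised counts.

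RNA was sequenced from MM.1S, an established human line of multiple myeloma, a malignancy of plasma cells. Lentiviral transduction gave the cells IRF3 shRNA 2, IRF3 shRNA 1 or a scrambled control hairpin, with 2 libraries in each group. Both hairpins were directed against IRF3, a transcription factor of the interferon response, and all 3 groups were transduced, so the reference is not untreated cells. No label states that libraries of a group came from separate cultures, so the p-values cover the spread between libraries alone, and this spread may be technical.

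Values of single libraries are not analysed here. The authors' deposited tables give, for each gene, a mean normalised count over all groups and a log2 fold change over scramble with its standard error (SE) and DESeq2 adjusted p. Group means were reconstructed from these and carry no SD. A gene is said to rise or fall where the adjusted p was below 0.05. In the authors' deposited tables IRF3 had a log2 fold change of -0.18 with shRNA 2 (adjusted p = 0.181) and -1.53 with shRNA 1 (adjusted p = 8.45e-46). The libraries labelled shRNA 2 therefore carry that name by their label only, and every direction given for them below is that of libraries in which IRF3 did not pass the test. All 8 plasma cell markers examined had means of 1665 to 31453, whereas 2 of the 12 markers of T, B, myeloid, epithelial and fibroblast cells with a row reached a mean of 50, the highest at 88.7. In bulk RNA, fewer cells of a type and less RNA per cell cannot be told apart. Both comparisons share the scramble libraries, so their values are set side by side and no likeness between them is counted as evidence.

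Oxidative phosphorylation passes electrons from NADH and succinate through complexes I, II, III and IV to oxygen, and complex V uses the resulting proton gradient to make ATP. Most subunits are encoded in the nucleus and imported, while a small set of core subunits of complexes I, III, IV and V is encoded in mitochondrial DNA. Plasma cells and myeloma cells make large amounts of secreted protein, and their ATP supply draws on this pathway.

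With the libraries labelled shRNA 2, many members were lower than scramble, and those that fell were spread over complexes I, III, IV and V. Of 93 members tested in the authors' deposited table, 44 fell and 3 rose, that is 47.3% lower, against a background of 18.1% lower and 10.9% higher among all 17054 genes tested. The members' median log2 fold change was -0.26, against 0.00 for all genes tested. With shRNA 1, 15 of 92 tested members fell and 6 rose in the authors' deposited table. The share that fell, 16.3%, is near the background of 14.8% lower, and 9.80% of all genes tested were higher, so that count is not a result about these genes. The members' median with shRNA 1 was -0.08, against -0.03 for all genes tested.

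Markers of plasma cells changed in the same libraries. Of 8 markers, 6 fell and 1 rose with each hairpin in the authors' deposited tables, and their summed reconstructed means were 82914 with shRNA 2, 92647 with shRNA 1 and 129955 with scramble. IRF4, a transcription factor of plasma cell identity, had log2 fold changes of -1.87 with shRNA 2 and -1.21 with shRNA 1 in the authors' deposited tables. TNFRSF17, the receptor BCMA, stood at -1.71 and -0.31, XBP1, a factor of the secretory programme, at -1.15 and -0.83, and PRDM1 at -0.66 and -0.54. The markers that rose were CD38 with shRNA 2, at 0.89, and SDC1 with shRNA 1, at 0.28. Of the 12 markers of other cell types, 5 were tested with shRNA 2 and 1 rose, and 3 were tested with shRNA 1 and 2 rose. Their summed reconstructed means were 218 with shRNA 2, 362 with shRNA 1 and 146 with scramble, and without ITGAM they were 129, 206 and 124 in that order of groups. ITGAM, a myeloid integrin, had reconstructed means of 88.4 with shRNA 2, 156 with shRNA 1 and 21.7 with scramble, and it rose with both (adjusted p = 3.32e-05 and 1.98e-09). CD3E, of T cells, rose with shRNA 1 (adjusted p = 0.023). MS4A1, CD14 and KRT18 had reconstructed means of at most 7.09 in every group, while some other markers were higher. With shRNA 2, shRNA 1 and scramble, in that order, COL1A1 stood at 28.3, 36.1 and 35.1, and EPCAM at 7.18, 29.9 and 14.3. LYZ stood at 10.4, 18.3 and 13.3, and PAX5 at 10.5, 11.6 and 6.46. The part of these changes in the members' values was not tested.

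Abundant genes pass a test more often, and 75 members had a mean of 1000 or more. At an unadjusted p below 0.05, 48 of them were lower and 2 higher with shRNA 2, against 34.7% lower and 21.0% higher among all genes with such a mean. With shRNA 1, 24 of them were lower and 10 higher at that threshold, against 28.8% lower and 20.6% higher. By the adjusted DESeq2 p, 41 fell and 0 rose with shRNA 2 in the authors' deposited table, which is 54.7%, against 29.8% lower and 17.1% higher among the 5147 genes with such a mean. With shRNA 1, 15 of the 75 fell and 6 rose, which is 20%, against 23.4% lower and 16.0% higher. This second background was chosen after the values had been seen. The summed reconstructed means of the members were 203184 normalised counts with shRNA 2, 233411 with shRNA 1 and 249317 with scramble. The sum with shRNA 2 was thus 0.81 of that with scramble, and the sum with shRNA 1 was 0.94 of it.

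**Figure D1:**
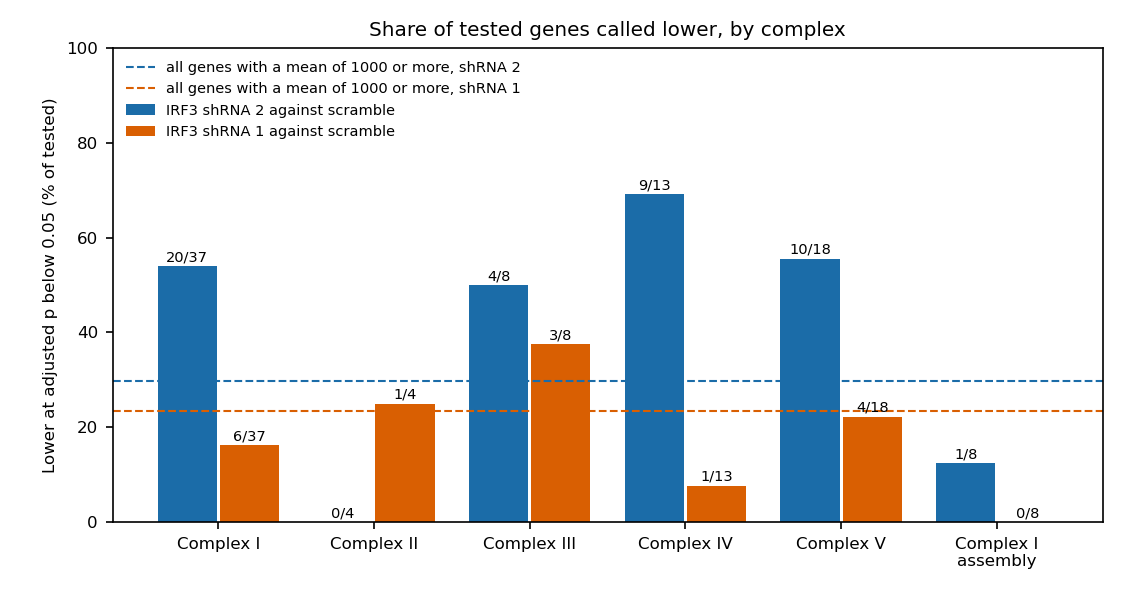
Share of tested genes (%) that fell at an adjusted p below 0.05, for each complex and for complex I assembly factors, with shRNA 2 (blue) and shRNA 1 (orange) against scramble; numbers over bars are counts, and dashed lines are the shares among all genes with a mean of 1000 or more, 29.8% and 23.4%. With shRNA 2 the bars of complexes I, III, IV and V stand above the dashed line and that of complex II is at 0.

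Complex I takes electrons from NADH. Of its 37 subunits, 20 fell and 0 rose with shRNA 2, and 6 fell and 2 rose with shRNA 1, in the authors' deposited tables. The background over all genes tested was 18.1% lower and 10.9% higher with shRNA 2, and 14.8% and 9.80% with shRNA 1. The share of subunits that fell with shRNA 1, 16.2%, is near this background. Most of these subunits had a mean of 1000 or more. Among all genes with such a mean, 29.8% were lower and 17.1% higher with shRNA 2, and 23.4% and 16.0% with shRNA 1. The median log2 fold change of the subunits was -0.34 with shRNA 2 and -0.10 with shRNA 1. The fall with shRNA 2 took in 4 of 7 nuclear core subunits, which carry the flavin and the iron-sulphur clusters, and 16 of 30 supernumerary subunits, which surround that core.

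NDUFA6, a supernumerary subunit of the matrix arm that binds the acyl carrier protein, had reconstructed means of 1047 with shRNA 2, 1404 with shRNA 1 and 1827 with scramble. In the authors' deposited tables its log2 fold change was -0.80 ± 0.114 (SE) with shRNA 2 (adjusted p = 4.34e-11) and -0.38 ± 0.113 with shRNA 1 (adjusted p = 0.00521). NDUFA6 lies at chr22:42085525-42090955 (GRCh38, minus strand). NDUFB10, of the membrane arm, had reconstructed means of 1334 with shRNA 2, 1213 with shRNA 1 and 1872 with scramble. Its log2 fold changes in the authors' deposited tables were -0.49 ± 0.108 with shRNA 2 and -0.63 ± 0.109 with shRNA 1, both past the threshold. NDUFS1, the largest core subunit and a carrier of iron-sulphur clusters, had reconstructed means of 2676, 2496 and 3497 in the libraries of shRNA 2, shRNA 1 and scramble. It fell with both hairpins in the authors' deposited tables, by 0.39 on the log2 scale with shRNA 2 and by 0.49 with shRNA 1. NDUFS6, a zinc-binding subunit, fell by 0.34 with shRNA 2 and by 0.29 with shRNA 1 in the authors' deposited tables, and its call with shRNA 1 was lost when the filter on low genes was dropped.

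Other complex I subunits passed with a single hairpin or in opposite directions. NDUFV2, which binds an iron-sulphur cluster beside the flavin, had reconstructed means of 4281 with shRNA 2, 5549 with shRNA 1 and 6363 with scramble, and in the authors' deposited tables it fell with shRNA 2 (log2 fold change -0.57 ± 0.085, adjusted p = 3.86e-10) but did not pass with shRNA 1 (-0.20 ± 0.085, adjusted p = 0.0725). NDUFV1, the flavin-bearing subunit that oxidises NADH and the complex I member with the highest mean, had reconstructed means of 9204 with shRNA 2, 6990 with shRNA 1 and 8135 with scramble. It did not pass with shRNA 2 (0.18 ± 0.079, adjusted p = 0.0735) and fell with shRNA 1 (-0.22 ± 0.079, adjusted p = 0.0261) in the authors' deposited tables. NDUFAB1, the mitochondrial acyl carrier protein, had reconstructed means of 1090 with shRNA 2, 1611 with shRNA 1 and 1550 with scramble. Its log2 fold change in the authors' deposited tables was -0.51 ± 0.111 with shRNA 2 (adjusted p = 3.89e-05) and 0.06 ± 0.110 with shRNA 1 (adjusted p = 0.791). NDUFC2, of the membrane arm, is the only member that passed in opposite directions in the authors' deposited tables, with -0.48 ± 0.101 for shRNA 2 (adjusted p = 1.53e-05) and 0.29 ± 0.099 for shRNA 1 (adjusted p = 0.0171). NDUFA3, another membrane-arm subunit, rose with shRNA 1 (0.35 ± 0.119, adjusted p = 0.0171) and stood at -0.04 with shRNA 2 (adjusted p = 0.858) in the authors' deposited tables. NDUFA2, of the matrix arm, fell with shRNA 1 alone in the authors' deposited tables (-0.34, adjusted p = 0.00414), and stood at -0.08 with shRNA 2 (adjusted p = 0.655).

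The other 13 complex I subunits that fell with shRNA 2 and did not pass with shRNA 1 were NDUFA8, NDUFA12, NDUFB2, NDUFB3, NDUFB4, NDUFB6, NDUFB7, NDUFB8, NDUFB9, NDUFS3, NDUFS4, NDUFS5 and NDUFS8. The NDUFB subunits among them belong to the membrane arm. The log2 fold changes of these 13 subunits with shRNA 2 in the authors' deposited table lay between -0.68 (NDUFB4) and -0.34 (NDUFB2). Among the subunits that passed in neither comparison were NDUFA1, NDUFA5, NDUFA7, NDUFA9, NDUFA10, NDUFA11, NDUFA13, NDUFB1, NDUFB5, NDUFB11, NDUFC1, NDUFS7 and NDUFV3. At an unadjusted p below 0.05, 25 complex I subunits were lower and 1 higher with shRNA 2, and 9 were lower and 4 higher with shRNA 1. Over all genes tested, that threshold took in 22.0% lower and 14.8% higher with shRNA 2, and 19.9% lower and 13.8% higher with shRNA 1.

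The complex I assembly factors help to build the complex and are not part of it. Of 8, in the authors' deposited tables, 1 fell and 0 rose with shRNA 2, and 0 fell and 1 rose with shRNA 1. The background over all genes tested was 18.1% lower and 10.9% higher with shRNA 2, and 14.8% and 9.80% with shRNA 1. Beside it, these counts are not a result about the assembly factors. NDUFAF4 fell with shRNA 2, by 0.39 on the log2 scale (adjusted p = 0.0211), and NDUFAF3, its partner in building the ubiquinone-binding module, rose with shRNA 1 (log2 fold change 0.45 ± 0.114, adjusted p = 0.000616). The remaining 6 (NDUFAF1, NDUFAF2, NDUFAF5, NDUFAF6, NDUFAF7 and NDUFAF8) passed in neither comparison. At an unadjusted p below 0.05, 2 assembly factors were lower and 0 higher with shRNA 2, and 0 were lower and 1 higher with shRNA 1. Reconstructed means of NDUFAF3 were 1710 with shRNA 2, 2429 with shRNA 1 and 1775 with scramble.

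Complex II, succinate dehydrogenase, is the only complex here encoded wholly in the nucleus. Of its 4 subunits, 0 passed with shRNA 2 and 1 fell with shRNA 1 in the authors' deposited tables. SDHA, the flavoprotein, had reconstructed means of 11691 with shRNA 2, 12585 with shRNA 1 and 12832 with scramble, with log2 fold changes of -0.13 and -0.03 in the authors' deposited tables. SDHB, the iron-sulphur subunit, stood at -0.25 with shRNA 2 (adjusted p = 0.0815) and -0.24 with shRNA 1 (adjusted p = 0.112). The membrane anchor SDHC stood at 0.00 and 0.06 with shRNA 2 and shRNA 1 in the authors' deposited tables. SDHD, the other anchor, stood at 0.09 with shRNA 2 (adjusted p = 0.581) and fell with shRNA 1 (-0.26 ± 0.104, adjusted p = 0.0457), a call that was lost when the filter on low genes was dropped and when values were recentred on the median gene. At an unadjusted p below 0.05, 1 of the 4 was lower with shRNA 2 and 2 were lower with shRNA 1. With 4 genes, a share of calls says little, and the difference between complex II and the other complexes was not tested.

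Complex III passes electrons from ubiquinol to cytochrome c. Of its 8 matched subunits, 4 fell and 0 rose with shRNA 2, and 3 fell and 1 rose with shRNA 1, in the authors' deposited tables. All 8 had a mean of 1000 or more. Among all genes with such a mean, 29.8% were lower and 17.1% higher with shRNA 2, and 23.4% and 16.0% with shRNA 1. With 8 genes, shares of calls say little beside this background. UQCRC1, a core protein of the complex, had reconstructed means of 2286 with shRNA 2, 2225 with shRNA 1 and 3293 with scramble. Both hairpin groups were lower than scramble in the authors' deposited tables, with log2 fold changes of -0.53 ± 0.098 for shRNA 2 (adjusted p = 9.19e-07) and -0.57 ± 0.098 for shRNA 1 (adjusted p = 1.82e-07). UQCRFS1, the Rieske iron-sulphur protein, fell by 0.41 with shRNA 2 and by 0.36 with shRNA 1 on the log2 scale in the authors' deposited tables. Rows named as UQCRFS1 pseudogenes held 10.1% of its mean, so its count depends on how reads were divided. UQCRH, the hinge protein that contacts cytochrome c1, had reconstructed means of 3465 with shRNA 2, 5149 with shRNA 1 and 5445 with scramble. It fell with shRNA 2 (log2 fold change -0.65 ± 0.085, adjusted p = 3.63e-13) and did not pass with shRNA 1 (-0.08 ± 0.084, adjusted p = 0.562) in the authors' deposited tables. UQCRC2, the other core protein, stood at -0.13 with shRNA 2 (adjusted p = 0.426) and fell with shRNA 1 (-0.39 ± 0.113, adjusted p = 0.00353) in the authors' deposited tables. UQCR10 and UQCRB passed in neither comparison. UQCR11, a small subunit, rose with shRNA 1 (0.44 ± 0.096, adjusted p = 6.12e-05) and stood at 0.10 with shRNA 2 (adjusted p = 0.502). CYC1, cytochrome c1, is a subunit that the symbol rule does not match, and it fell by 0.36 with shRNA 2 and by 0.26 with shRNA 1 in the authors' deposited tables.

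**Figure D2:**
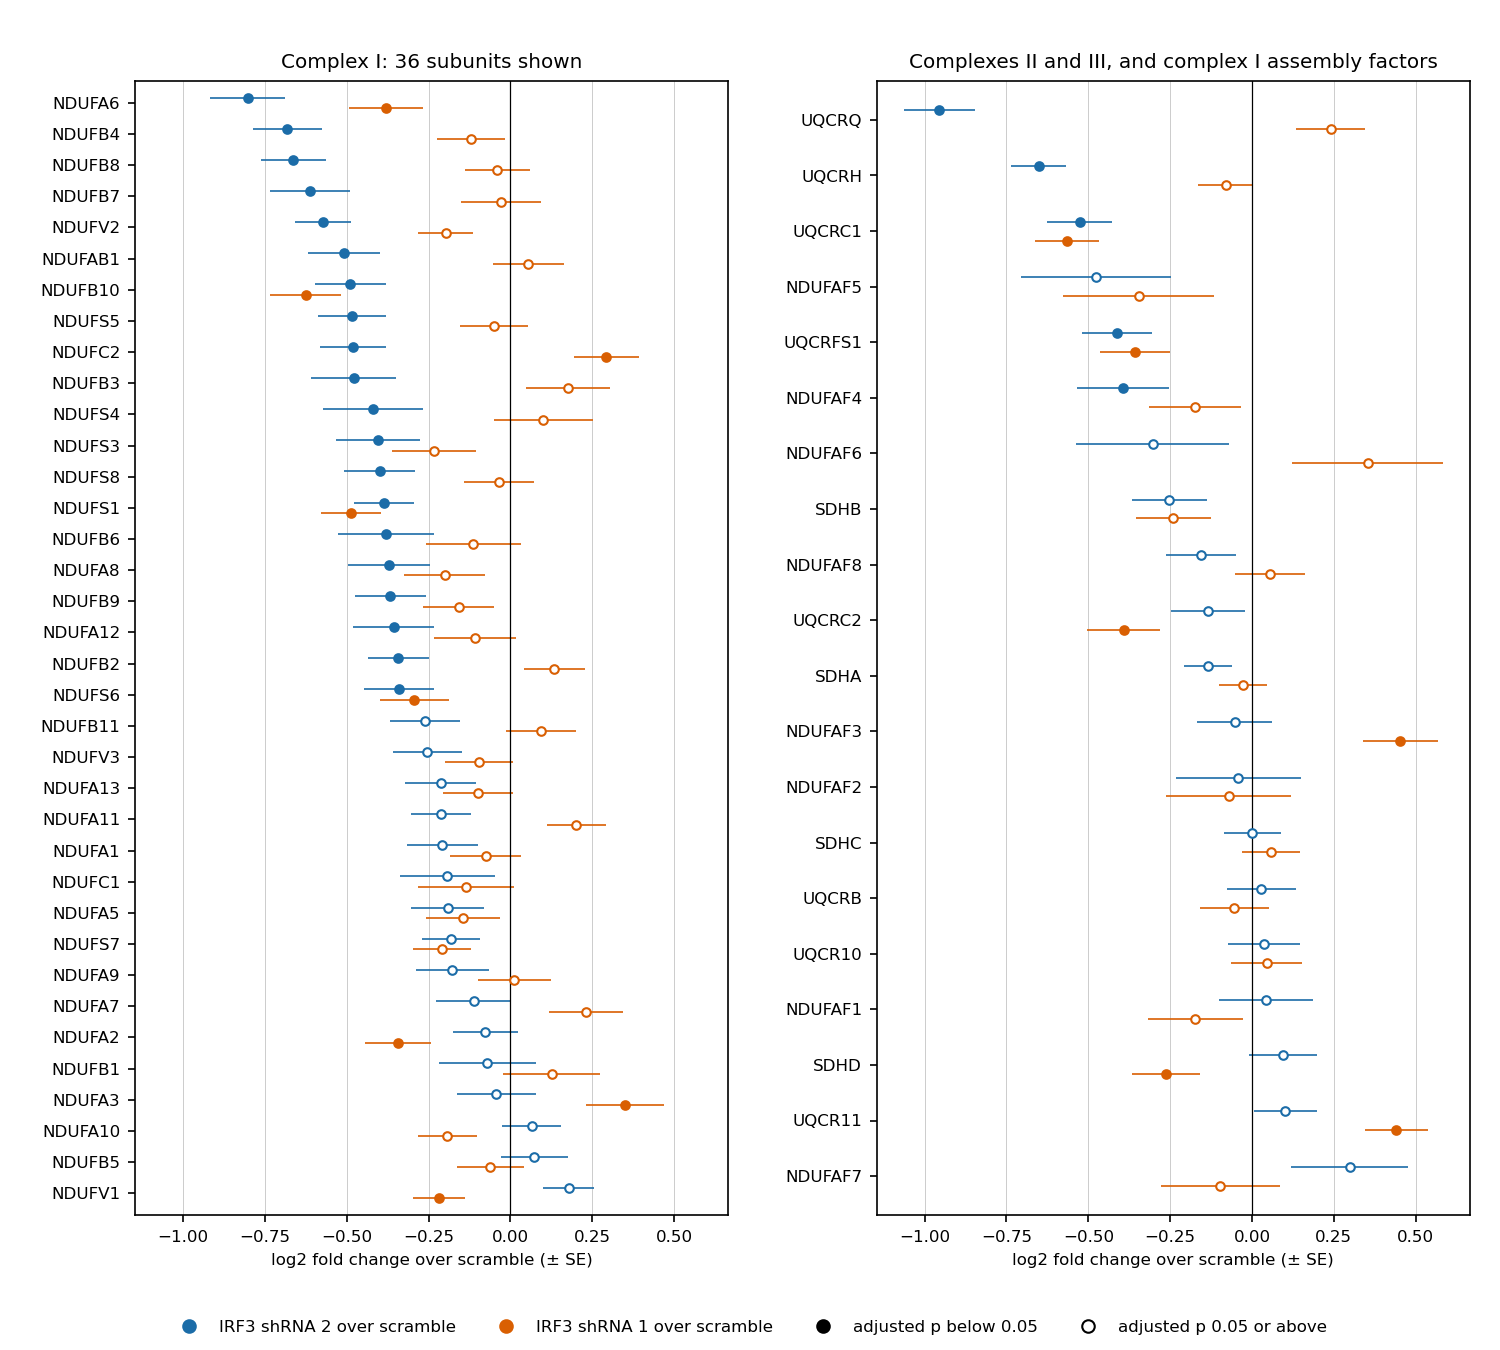
Log2 fold change over scramble (x axis, ± SE) of complex I subunits (left) and of complex II and III subunits and complex I assembly factors (right), for shRNA 2 (blue, upper point) and shRNA 1 (orange, lower point); filled points have an adjusted p below 0.05. UQCRQ stands at -0.96 with shRNA 2 and at 0.24 with shRNA 1, while NDUFB10, NDUFS1 and UQCRC1 are filled and below 0 for both.

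Complex IV, cytochrome c oxidase, reduces oxygen to water. It had the lowest median of the complexes with shRNA 2. Of its 11 widely expressed nuclear subunits, 9 fell and 0 rose with shRNA 2 in the authors' deposited tables, with a median log2 fold change of -0.56. With shRNA 1, 1 of them fell and 1 rose, with a median of -0.15. All 11 had a mean of 1000 or more, where 29.8% of genes were lower and 17.1% higher with shRNA 2. With shRNA 1, 23.4% of genes with such a mean were lower and 16.0% higher. COX6A1 had reconstructed means of 1484 with shRNA 2, 2754 with shRNA 1 and 2937 with scramble. Its log2 fold change in the authors' deposited tables was -0.98 ± 0.105 with shRNA 2 (adjusted p = 2.56e-19) and -0.09 ± 0.103 with shRNA 1 (adjusted p = 0.595). COX8A, among the small subunits of the complex, had reconstructed means of 1609 with shRNA 2, 2798 with shRNA 1 and 3115 with scramble. Its log2 fold change in the authors' deposited tables was -0.95 ± 0.111 with shRNA 2 (adjusted p = 3.67e-16) and -0.15 ± 0.110 with shRNA 1 (adjusted p = 0.345). For both genes the shRNA 1 mean lay near that of scramble and the shRNA 2 mean was far lower.

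COX6B1, which faces the intermembrane space, is the complex IV subunit that fell with both hairpins in the authors' deposited tables, by 0.52 on the log2 scale with shRNA 2 and by 0.38 with shRNA 1. COX7A2 stood at -0.56 ± 0.102 with shRNA 2 (adjusted p = 4.46e-07) and -0.25 ± 0.102 with shRNA 1 (adjusted p = 0.0592) in the authors' deposited tables, and COX7B at -0.60 ± 0.107 (adjusted p = 2.26e-07) and -0.21 ± 0.106 (adjusted p = 0.144). COX5A and COX5B, which lie on the matrix side, fell with shRNA 2 in the authors' deposited table by 0.63 and 0.57 on the log2 scale, and COX6C fell by 0.45, while none of them passed with shRNA 1 and COX7C passed with neither hairpin. NDUFA4, first assigned to complex I and since placed in complex IV, fell with shRNA 2 in the authors' deposited tables, by 0.24 (adjusted p = 0.0289), a call lost when low genes were not filtered and after recentring, and stood at 0.22 with shRNA 1 (adjusted p = 0.063). COX4I1 rose with shRNA 1 (0.23 ± 0.090, adjusted p = 0.0453) and stood at -0.11 with shRNA 2 (adjusted p = 0.42) in the authors' deposited tables. The call of COX4I1 was lost when low genes were not filtered. COX7A2L, a factor of respiratory supercomplexes, stood at 0.21 with shRNA 2 (adjusted p = 0.104) and 0.19 with shRNA 1 (adjusted p = 0.185), and it passed with shRNA 2 after recentring on the median gene.

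The isoforms known from particular tissues or conditions were low. COX4I2 is known from lung, COX8C from testis, COX7A1 from heart and skeletal muscle, and NDUFA4L2 from hypoxic cells. They carry no adjusted p in the authors' deposited tables, and their reconstructed means did not exceed 10.8 normalised counts in any group. COX6B2, the testis form of COX6B1, had reconstructed means of 129 with shRNA 2, 65.5 with shRNA 1 and 54.7 with scramble. In the authors' deposited tables COX6B2 rose with shRNA 2, at a ratio of 2.36 with a 95% interval of 1.33 to 4.18 (adjusted p = 0.015), and did not pass with shRNA 1 (log2 fold change 0.26 ± 0.430, adjusted p = 0.741).

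Complex V, the ATP synthase, turns the proton gradient into ATP. Of 18 rows, 10 fell and 0 rose with shRNA 2, and 4 fell and 1 rose with shRNA 1, in the authors' deposited tables. The background over all genes tested was 18.1% lower and 10.9% higher with shRNA 2, and 14.8% and 9.80% with shRNA 1. Most of these rows had a mean of 1000 or more. Among all genes with such a mean, 29.8% were lower and 17.1% higher with shRNA 2, and 23.4% and 16.0% with shRNA 1. In the catalytic head, ATP5F1B, the beta subunit, had reconstructed means of 12072 with shRNA 2, 13285 with shRNA 1 and 17394 with scramble. It fell by 0.53 on the log2 scale with shRNA 2 (adjusted p = 2.81e-12) and by 0.39 with shRNA 1 (adjusted p = 7.93e-07) in the authors' deposited tables. ATP5F1A, the alpha subunit, fell by 0.37 with shRNA 2 and by 0.20 with shRNA 1 in the authors' deposited tables, and the call with shRNA 1 was lost after recentring. ATP5F1E, the epsilon subunit of the central stalk, rose with shRNA 1 (0.40 ± 0.111, adjusted p = 0.00251) and stood at 0.19 with shRNA 2 (adjusted p = 0.215).

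The rotating c ring is made from 3 genes, ATP5MC1, ATP5MC2 and ATP5MC3, whose products share the same mature peptide after the targeting sequence is removed. All 3 fell with shRNA 2 and none passed with shRNA 1 in the authors' deposited tables. ATP5MC1 had reconstructed means of 1644 with shRNA 2, 2236 with shRNA 1 and 2576 with scramble, and its log2 fold change in the authors' deposited tables was -0.65 ± 0.105 with shRNA 2. ATP5MC2 had reconstructed means of 2215 with shRNA 2, 3584 with shRNA 1 and 3410 with scramble, with -0.62 ± 0.101 for shRNA 2 in the authors' deposited table. ATP5MC3 had reconstructed means of 4126 with shRNA 2, 5514 with shRNA 1 and 6288 with scramble, with -0.61 ± 0.080 for shRNA 2. The last 225 coding bases before the stop codon were 88.9% identical between ATP5MC1 and ATP5MC2, and 81.3% identical between ATP5MC3 and each of them, so reads from that stretch hold differences by which the genes can be told apart.

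In the peripheral stalk, which holds the head still, ATP5PO, the oligomycin sensitivity conferring protein, had reconstructed means of 3642 with shRNA 2, 2524 with shRNA 1 and 4351 with scramble. Its log2 fold change in the authors' deposited tables was -0.26 ± 0.091 with shRNA 2 (adjusted p = 0.02), a call lost after recentring, and -0.79 ± 0.092 with shRNA 1 (adjusted p = 9.19e-16). This was the largest fall of any tested member with shRNA 1. ATP5PD and ATP5PF, also of the peripheral stalk, fell with shRNA 2 by 0.54 and 0.56 on the log2 scale in the authors' deposited table. In the rest of the complex, ATP5F1C, the gamma subunit, fell with shRNA 2 by 0.40 and ATP5MF by 0.39. None of ATP5PD, ATP5PF, ATP5F1C and ATP5MF passed with shRNA 1. ATP5F1D, the delta subunit, fell with shRNA 1 alone, by 0.34 (adjusted p = 0.00331). ATP5MD, ATP5ME, ATP5MG, ATP5MPL and ATP5PB passed in neither comparison, and at an unadjusted p below 0.05 there were 11 complex V rows lower and 0 higher with shRNA 2, and 6 lower and 1 higher with shRNA 1, beside the same shares of all genes as for complex I. The inhibitor ATP5IF1, which blocks ATP hydrolysis, stood at -0.05 with shRNA 2 (adjusted p = 0.795) and 0.08 with shRNA 1 (adjusted p = 0.668).

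**Figure D3:**
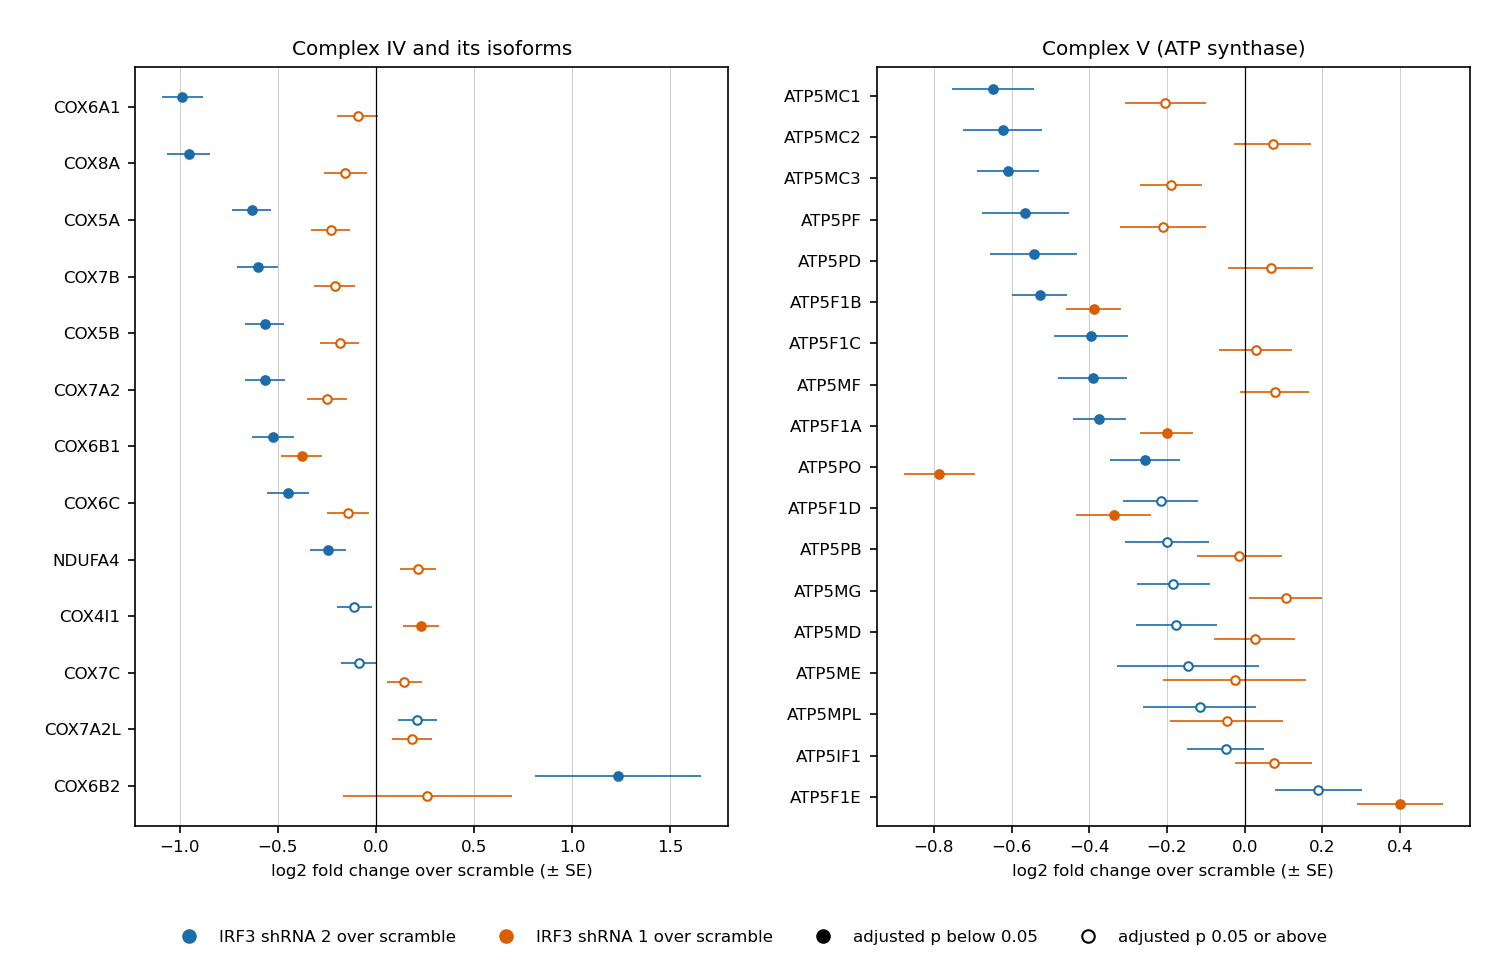
Log2 fold change over scramble (x axis, ± SE) of complex IV members (left) and complex V members (right), for shRNA 2 (blue, upper point) and shRNA 1 (orange, lower point); filled points have an adjusted p below 0.05. COX6A1 and COX8A are the lowest of complex IV with shRNA 2, at -0.98 and -0.95, and ATP5PO is the lowest of complex V with shRNA 1, at -0.79.

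Across the complexes, 10 members fell in both comparisons in the authors' deposited tables: NDUFA6, NDUFB10, NDUFS1, NDUFS6, UQCRC1, UQCRFS1, COX6B1, ATP5F1A, ATP5F1B and ATP5PO. The share of all genes tested that fell in both was not counted, so that number has no background beside it. Because the scramble libraries are shared, it is also no measure of agreement between the hairpins. The difference between hairpins was tested by itself, as the log2 fold change with shRNA 2 minus that with shRNA 1, by a two-sided z test adjusted over 14488 genes. It was called in 29 of 92 members, 27 lower and 2 higher with shRNA 2 than with shRNA 1. The share lower was 29.3%, against a background of 13.8% lower and 10.1% higher over all genes tested. Among the 75 members with a mean of 1000 or more, 27 were lower and 2 higher, against 21.9% lower and 16.7% higher among all genes with such a mean. The SE of this difference counts the scramble variance though it cancels, so it is too large.

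UQCRQ, a small subunit near the ubiquinone site of complex III, had the largest difference of the members tested. Its reconstructed means were 1032 with shRNA 2, 2363 with shRNA 1 and 2001 with scramble. The authors' deposited tables gave log2 fold changes of -0.96 ± 0.108 for shRNA 2 (adjusted p = 5.16e-17) and 0.24 ± 0.106 for shRNA 1 (adjusted p = 0.082), and the difference was -1.20 ± 0.152 (adjusted p = 2.18e-13). UQCRQ lies at chr5:132866560-132868031 (GRCh38, plus strand). COX6A1 differed by -0.89 ± 0.147 (adjusted p = 3.6e-08), COX8A by -0.80 ± 0.156 (adjusted p = 5.84e-06) and NDUFC2 by -0.77 ± 0.141 (adjusted p = 9.15e-07). The members higher with shRNA 2 than with shRNA 1 were ATP5PO, at 0.53 ± 0.129 (adjusted p = 0.000441), and NDUFV1, at 0.40 ± 0.111 (adjusted p = 0.00273). For UQCRC1, which fell with both, the difference was 0.04 ± 0.139 (adjusted p = 0.903).

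**Figure D4:**
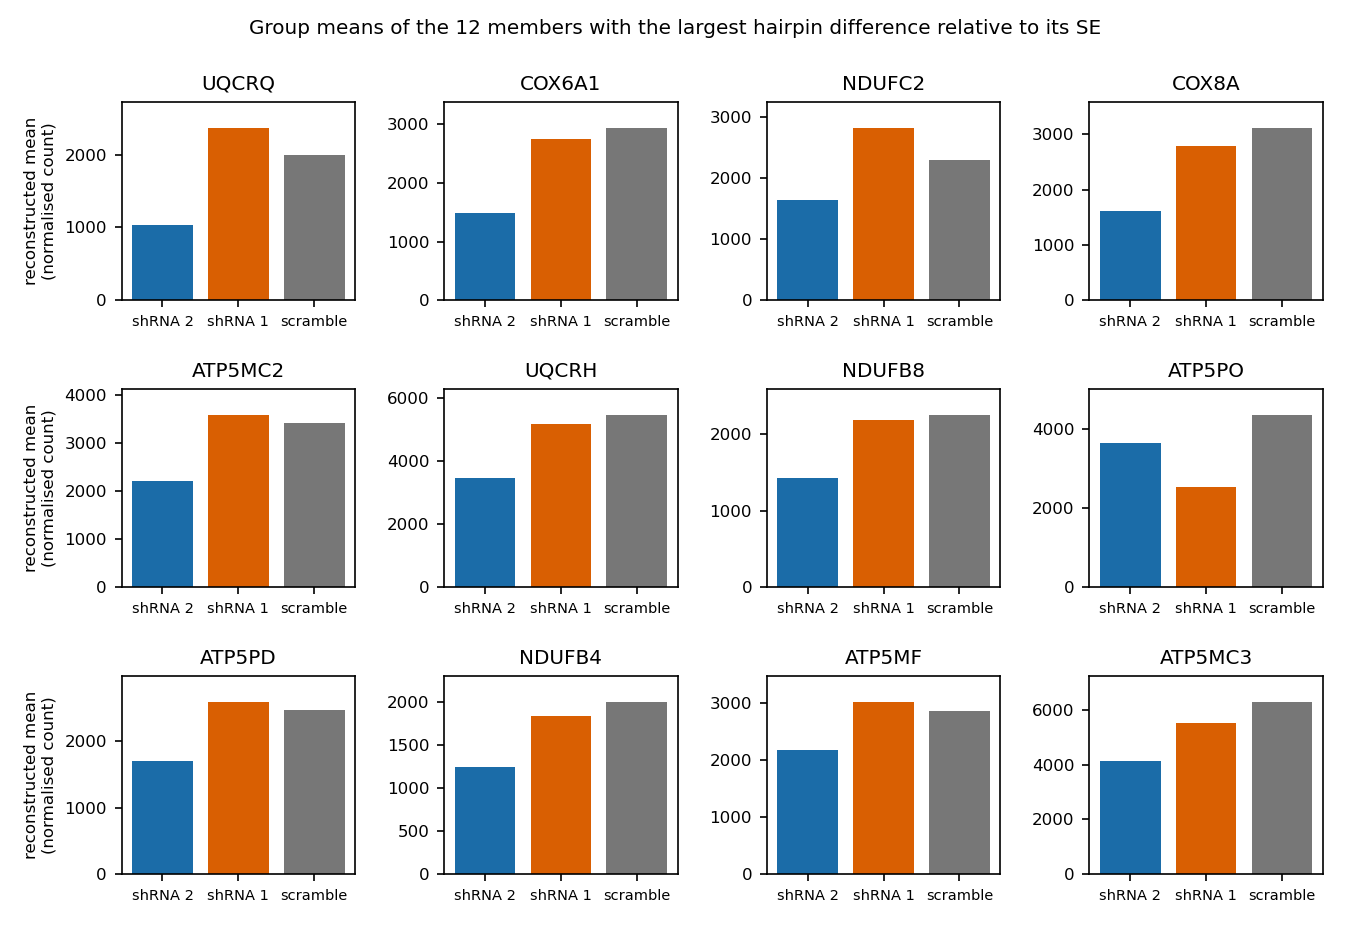
Reconstructed group means (normalised counts, no error bars because single libraries are not analysed) of the 12 members with the largest difference between hairpins relative to its SE, for shRNA 2 (blue), shRNA 1 (orange) and scramble (grey). UQCRQ stands at 1032, 2363 and 2001 in that order of groups, and ATP5PO is the panel in which shRNA 1 is lowest, at 2524.

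The 7 rows that are not subunits or assembly factors were mostly low. UQCRHL, a copy of UQCRH, had reconstructed means of 25.8 with shRNA 2, 15.3 with shRNA 1 and 2.57 with scramble. In the authors' deposited table it rose with shRNA 2 (log2 fold change 3.33 ± 1.03, adjusted p = 0.00592), a ratio of 10.0 with a 95% interval of 2.49 to 40.6, and it carries no adjusted p with shRNA 1. UQCRH itself fell with shRNA 2. Over the 276 bases of the UQCRH coding sequence the copies differed at 4 positions, an identity of 98.6%. Reads that lie within this sequence can be divided between the copies only where they cover such a base. The parts of the transcripts outside it were not compared. The stretch from coding base 115 to 234 holds all 4 and is shown from GENCODE 29 (GRCh38). The differing bases are in capitals, because they separate the copy from its parent within the coding sequence.
UQCRHL: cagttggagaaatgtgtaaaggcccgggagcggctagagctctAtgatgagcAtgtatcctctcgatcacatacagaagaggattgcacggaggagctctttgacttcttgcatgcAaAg
UQCRH: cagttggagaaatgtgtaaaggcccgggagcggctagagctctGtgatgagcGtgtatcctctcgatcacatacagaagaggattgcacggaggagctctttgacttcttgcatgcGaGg

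NDUFV2-AS1, transcribed opposite to NDUFV2, had reconstructed means of 173 with shRNA 2, 138 with shRNA 1 and 94 with scramble. It rose with shRNA 2 in the authors' deposited table (log2 fold change 0.88 ± 0.303, adjusted p = 0.0155), while NDUFV2 fell. Neither the labels nor the file headers say if reads were counted by strand, and the genes overlap (chr18:9121265-9136645 and chr18:9102630-9134345, GRCh38), so their reads may not be separated. NDUFA6-DT, NDUFB2-AS1 and the readthrough row ATP5MF-PTCD1 passed in neither comparison, and ATP5MGL and NDUFC2-KCTD14 carry no adjusted p. Rows of named pseudogenes exceeded 1% of the member's mean for 3 members, UQCRFS1 at 10.1%, SDHA at 9.9% and NDUFV2 at 4.4%.

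Promoters of respiratory genes are known to hold sites for NRF1, for GABP, a factor of the ETS family, and for YY1. Windows of 300 bases, from 250 before to 50 after the gene start, were available from RefSeq (GRCh38.p14) for 80 members, 68 of them subunits. The letters searched on both strands were GCATGCGC for NRF1, CCGGAAG for GABP/ETS, AAGATGGC for YY1, GGGCGG for SP1, TGACGTCA for the cyclic AMP response element (CRE), CACGTG for the E-box and AAGGTCA for the oestrogen-related receptors (ERR). A window counts once per motif, and matches may overlap. NRF1 letters were in 19.1% of subunit windows and 4.3% of 15842 protein-coding windows. GABP/ETS letters were in 29.4% and 14.2%, YY1 letters in 16.2% and 3.9%, and ERR letters in 13.2% and 3.1%. SP1 letters were about as common in subunit windows (60.3%) as in protein-coding windows (58.5%). CRE letters were in 7.4% of subunit windows and 2.6% of protein-coding windows, and E-box letters in 10.3% and 8.9%. At least 1 of the NRF1, GABP/ETS and YY1 strings was in 34 of 68 subunit windows (50%) and in 20.3% of protein-coding windows.

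Split by the call with shRNA 2, NRF1 letters were in 25.7% of the 35 windows of subunits that fell and 12.9% of the 31 windows of subunits tested that did not fall. GABP/ETS letters were in 31.4% and 29%, YY1 letters in 14.3% and 19.4%, ERR letters in 8.6% and 19.4%, and E-box letters in 2.9% and 19.4% of these groups. These shares rest on few windows and were not tested.

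The windows of 6 subunits are shown, with NRF1, GABP/ETS and YY1 letters in capitals, to set subunits that fell with shRNA 2 beside SDHD, which did not. They are NDUFA6 (chr22:42090723-42091022, minus strand) and UQCRC1 (chr3:48609597-48609896, minus strand), which fell with both hairpins, UQCRQ (chr5:132866392-132866691, plus strand), COX6A1 (chr12:120437863-120438162, plus strand) and COX8A (chr11:63974370-63974669, plus strand), which fell with shRNA 2, and SDHD (chr11:112086623-112086922, plus strand).
NDUFA6: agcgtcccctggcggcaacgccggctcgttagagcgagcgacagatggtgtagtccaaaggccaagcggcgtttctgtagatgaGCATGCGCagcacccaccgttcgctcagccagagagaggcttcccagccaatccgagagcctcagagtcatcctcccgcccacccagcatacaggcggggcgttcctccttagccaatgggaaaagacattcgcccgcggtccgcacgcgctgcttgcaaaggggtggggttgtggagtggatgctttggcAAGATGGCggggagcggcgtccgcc
UQCRC1: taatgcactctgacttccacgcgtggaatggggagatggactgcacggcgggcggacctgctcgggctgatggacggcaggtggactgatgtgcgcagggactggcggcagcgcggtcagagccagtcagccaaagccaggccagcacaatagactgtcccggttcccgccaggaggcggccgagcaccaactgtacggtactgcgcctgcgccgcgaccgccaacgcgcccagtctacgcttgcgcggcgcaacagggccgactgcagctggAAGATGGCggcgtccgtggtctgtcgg
UQCRQ: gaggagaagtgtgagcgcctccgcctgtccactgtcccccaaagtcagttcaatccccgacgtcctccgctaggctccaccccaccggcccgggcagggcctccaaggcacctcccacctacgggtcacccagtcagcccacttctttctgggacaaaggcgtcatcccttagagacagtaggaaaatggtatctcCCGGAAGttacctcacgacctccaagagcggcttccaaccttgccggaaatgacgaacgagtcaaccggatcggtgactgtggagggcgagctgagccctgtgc
COX6A1: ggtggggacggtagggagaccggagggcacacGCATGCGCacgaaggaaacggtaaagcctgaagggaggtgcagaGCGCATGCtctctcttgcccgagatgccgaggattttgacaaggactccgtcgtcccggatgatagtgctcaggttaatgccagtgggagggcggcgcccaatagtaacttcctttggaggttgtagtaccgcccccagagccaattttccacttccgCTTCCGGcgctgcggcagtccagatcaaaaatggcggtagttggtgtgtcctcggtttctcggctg
COX8A: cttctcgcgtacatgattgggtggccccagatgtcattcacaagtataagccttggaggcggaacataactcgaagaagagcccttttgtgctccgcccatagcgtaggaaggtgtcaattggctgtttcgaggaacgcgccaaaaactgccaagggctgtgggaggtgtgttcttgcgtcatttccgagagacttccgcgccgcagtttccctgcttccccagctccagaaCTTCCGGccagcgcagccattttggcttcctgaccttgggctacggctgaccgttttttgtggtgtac
SDHD: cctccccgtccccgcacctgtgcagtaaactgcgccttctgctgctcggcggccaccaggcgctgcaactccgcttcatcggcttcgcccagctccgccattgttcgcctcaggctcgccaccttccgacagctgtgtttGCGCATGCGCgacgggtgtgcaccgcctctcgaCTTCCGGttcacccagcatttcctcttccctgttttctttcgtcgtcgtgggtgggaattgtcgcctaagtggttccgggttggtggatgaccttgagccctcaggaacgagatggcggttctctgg
Counted from the first base of the window, NDUFA6 held NRF1 letters at base 85 and YY1 letters at base 276, and UQCRC1 held YY1 letters at base 274. UQCRQ held GABP/ETS letters at base 197, and COX8A held them at base 233. COX6A1 held NRF1 letters at bases 33 and 77 and GABP/ETS letters at base 235. SDHD held overlapping NRF1 letters on both strands, at bases 141 and 143, and GABP/ETS letters at base 174. These 6 windows were picked and all hold such strings, whereas 34 of 68 subunit windows (50%) do. NDUFB10, UQCRFS1 and ATP5F1A fell with both hairpins, and their windows held none of these strings. The windows of NDUFAB1, NDUFV2, COX5A and COX7B, which fell with shRNA 2 only, held none either. The windows shown therefore do not stand for the subunits that fell.

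**Figure D5:**
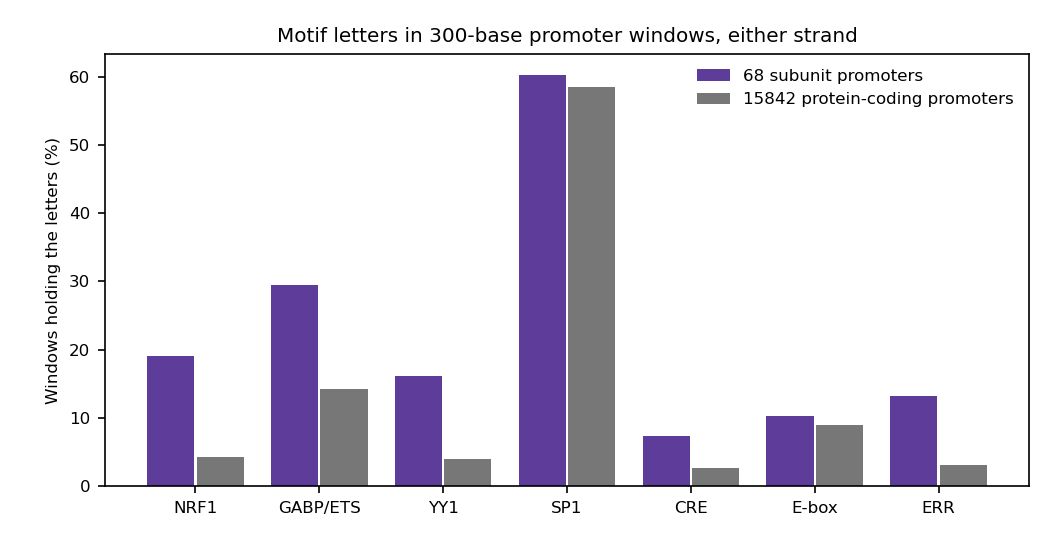
Share of promoter windows (%) that hold each motif's letters on either strand, for 68 subunits (purple) and 15842 protein-coding genes (grey). NRF1 letters are in 19.1% of subunit windows and 4.3% of protein-coding windows, while SP1 letters are in 60.3% and 58.5%.

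Other genes of the pathway were counted from lists. Over all genes tested, 18.1% were lower and 10.9% higher with shRNA 2, and 14.8% were lower and 9.80% higher with shRNA 1. Among genes with a mean of 1000 or more, 29.8% were lower and 17.1% higher with shRNA 2, and 23.4% were lower and 16.0% higher with shRNA 1. Of 13 mitochondrially encoded subunits, which are partners of the members in the same complexes, 5 fell and 1 rose with shRNA 2, and 6 fell and 0 rose with shRNA 1 in the authors' deposited tables, and all 13 had a mean of 1000 or more. MT-ND4L, a complex I core subunit, fell by 0.38 with shRNA 2 and by 0.45 with shRNA 1. Of 48 assembly factors outside the symbol rule, 10 fell and 2 rose with shRNA 2, and 11 fell and 1 rose with shRNA 1. A list on the exchange of adenine nucleotides and phosphate had 8 tested genes: SLC25A3, SLC25A4, SLC25A5, SLC25A6, VDAC1, VDAC2, VDAC3 and CKMT1A. Of these 8 genes, 6 fell and 1 rose with shRNA 2, and 2 fell and 0 rose with shRNA 1. VDAC1, VDAC2 and VDAC3 were among those that fell with shRNA 2, and SLC25A6 was the gene that rose. SLC25A4, an ADP/ATP carrier, fell by 0.99 with shRNA 2 and by 0.64 with shRNA 1 in the authors' deposited tables. Of genes of the tricarboxylic acid cycle and pyruvate dehydrogenase, which supply NADH and succinate, 10 of 19 fell and 1 rose with shRNA 2, and 9 of 18 fell and 0 rose with shRNA 1. At a mean of 1000 or more, these counts were 9 lower of 16 with shRNA 2 and 9 lower of 16 with shRNA 1. Those of the list on nucleotide and phosphate exchange were 6 lower of 7 with shRNA 2 and 2 lower of 7 with shRNA 1. The assembly factors with such a mean were lower in 3 of 17 with shRNA 2 and 5 of 17 with shRNA 1. Of 13 electron carriers and other entry points to ubiquinone, 5 fell and 1 rose with shRNA 2, and 1 fell and 1 rose with shRNA 1. Of 13 genes of ubiquinone synthesis, 4 fell and 1 rose with shRNA 2, and 3 fell and 1 rose with shRNA 1. Of 12 genes of mitochondrial DNA maintenance, 4 fell and 2 rose with shRNA 2, and 1 fell and 1 rose with shRNA 1. At a mean of 1000 or more, 2 of 6 electron carriers and entry points fell with shRNA 2 and 1 with shRNA 1, and 0 rose with either. For ubiquinone synthesis, 0 of 3 such genes fell and 1 rose with shRNA 2, and 2 fell and 1 rose with shRNA 1. For mitochondrial DNA maintenance, 1 of 5 fell and 1 rose with each hairpin.

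Of 17 regulators of respiratory gene transcription, 3 fell and 2 rose with shRNA 2, and 2 fell and 2 rose with shRNA 1 in the authors' deposited tables. TFAM, which packages and transcribes mitochondrial DNA, had reconstructed means of 877 with shRNA 2, 1713 with shRNA 1 and 1577 with scramble, and it fell with shRNA 2 (log2 fold change -0.85, adjusted p = 2.51e-12). ESRRA, an oestrogen-related receptor, fell by 0.46 with shRNA 2 and by 0.96 with shRNA 1 in the authors' deposited tables. The coactivator PPARGC1A stood at -0.36 with shRNA 2 (adjusted p = 0.201) and fell with shRNA 1 (-1.16, adjusted p = 4.75e-07). NRF1 stood at 0.34 with shRNA 2 (adjusted p = 0.14) and 0.01 with shRNA 1 (adjusted p = 0.973), and GABPA at -0.27 (adjusted p = 0.107) and -0.26 (adjusted p = 0.145). GABPB2 rose with both hairpins, by 0.53 with shRNA 2 and 0.60 with shRNA 1 in the authors' deposited tables. Their part in the members' values was not tested.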

How the data were processed

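Poly(A)-selected RNA of 6 MM.1S libraries was sequenced, and groups follow the hairpin in the labels. Per the submitters' processing notes, Salmon 0.12.0, DESeq2 1.24.0 and the build GRCh38 (hg38) were used; settings, strand use and depth per library are not stated in the labels or headers. The authors deposited 2 comparison tables with, per the file headers, a signal (mean normalised count), log2 fold changes with SEs, a Wald score, and p-values with adjusted p-values. The means were identical in both tables. Adjusted p-values were present for 14488 genes with shRNA 1 and 17054 with shRNA 2, and no other gene enters a count of calls. The main test was the authors' two-sided DESeq2 Wald test at an adjusted p below 0.05.

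Fold changes were read as shRNA over scramble. This was checked by solving the dispersion of 328 genes from either table, whose median absolute log ratio was 0.0024 as coded, 0.0711 with the table of shRNA 2 turned, 0.0397 with that of shRNA 1 turned and 0.068 with both. Group means were reconstructed from the mean and both fold changes, for equal group sizes. The difference between hairpins was a z test with Benjamini-Hochberg adjustment. It was run on simulated data whose SEs came from the dispersions that made the counts. That run cannot show how the test behaves with estimated dispersions. Ratio intervals are at 95% from the SE. Coordinates and coding sequence came from GENCODE 29, and promoters from RefSeq, with exact motif letters. Python 3.11.15, pandas 2.3.3 and scipy 1.17.1 were used.

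The members and lists were chosen with earlier results of these data known. Named genes were those of each complex with the lowest larger p of both comparisons or the lowest p of the difference, every member that rose, all SDH genes, isoform pairs, c-ring genes, the inhibitor, the members with the highest means, and set regulators. COX6A2 and COX7B2 are not analysed here. A gene that the rule takes is counted but not reported by name here.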

Additional observations from a re-analysis of the deposited data

Results flagged for a closer look

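The log2 fold change with shRNA 2 minus that with shRNA 1 passed a two-sided z test of the difference, adjusted over all genes, for 29 members. In complex I it was -0.77 for NDUFC2, -0.65 for NDUFB3, -0.62 for NDUFB8, -0.58 for NDUFB7, -0.56 for NDUFAB1 and -0.56 for NDUFB4. It was -0.48 for NDUFB2, -0.43 for NDUFS5, -0.42 for NDUFA6, -0.41 for NDUFA11, -0.37 for NDUFV2 and 0.40 for NDUFV1. The assembly factor NDUFAF3 stood at -0.51. In complex III the difference was -1.20 for UQCRQ and -0.57 for UQCRH. In complex IV it was -0.89 for COX6A1, -0.80 for COX8A, -0.46 for NDUFA4, -0.40 for COX5A, -0.39 for COX7B, -0.38 for COX5B and -0.34 for COX4I1. In complex V it was -0.69 for ATP5MC2, -0.61 for ATP5PD, -0.47 for ATP5MF, -0.44 for ATP5MC1, -0.42 for ATP5F1C, -0.42 for ATP5MC3 and 0.53 for ATP5PO. A negative value means lower with shRNA 2 than with shRNA 1. IRF3 itself was lower with shRNA 1 and did not pass with shRNA 2, and its part in these differences was not tested.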

How the results depend on the processing

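Requiring an absolute log2 fold change of at least 0.5 left 25 of 93 tested members called with shRNA 2, against 3191 of all 17054 genes tested. With shRNA 1 it left 3 of 92 members, against 2002 of 14488 genes. Leaving the shared scramble variance out of the SE of the hairpin difference gave 45 of 92 members (5 higher, 40 lower). Over all genes tested it gave 5715 of 14488 (2615 higher, 3100 lower). Recentring on the median gene, a shift of -0.04 in both comparisons, gave 5 higher and 41 lower members with shRNA 2, and 9 higher and 11 lower with shRNA 1, against 6 higher and 15 lower as deposited. Over all genes it gave 2158 higher and 2793 lower of 17054 with shRNA 2, and 1699 higher and 1834 lower of 14488 with shRNA 1. The other alternatives (thresholds of 0.01 and 0.1, no filter on low genes, structural subunits only) kept each total of calls within 1.5 times, but not each direction. At an adjusted p below 0.01 the higher members were 1 with shRNA 2 and 3 with shRNA 1, against 3 and 6 at 0.05, and higher genes with shRNA 1 were 915, against 1420. With structural subunits only, 1 member was higher with shRNA 2. Without the filter on low genes the hairpin difference lost its call for NDUFA6, COX4I1, COX5B and COX7B. Calls with shRNA 1 near the threshold (NDUFS6, NDUFV1, SDHD) and NDUFB6 and NDUFA4 with shRNA 2 were lost with that filter dropped and after recentring. Recentring also added calls. NDUFV1 passed as higher with shRNA 2 (0.22, adjusted p = 0.0219). UQCRQ passed as higher with shRNA 1 (0.28, adjusted p = 0.0347), opposite to its fall with shRNA 2, and NDUFA11 and NDUFA4 also passed as higher with shRNA 1. No paired analysis was possible because the deposited tables hold no column of a single library. For the same reason no replicate was left out in turn, so it is not known whether 1 library decides a value, and the 2 libraries a group limit what can be detected.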

Other observations

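Most subunits of oxidative phosphorylation are short transcripts. The 79 subunits with a mean of 50 or more had a median transcript length of 918 bases, against 3049 bases for the 11398 protein-coding genes at or above it. Over these subunits, transcript length and log2 fold change had a Spearman rho of 0.39 with shRNA 2 and -0.14 with shRNA 1, and over the protein-coding genes it was -0.03 with shRNA 2 and -0.12 with shRNA 1. These are descriptions across genes that share the same libraries. Of the 281 protein-coding genes that had a transcript under 1000 bases and a mean of at least 1000, 34.5% fell with shRNA 2 and 11.4% with shRNA 1, with medians of -0.10 and 0.13. Among all genes with such a mean, 29.8% fell with shRNA 2 and 23.4% with shRNA 1, with medians of -0.07 and -0.03. The part of transcript length in the members' values was not tested.

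YY1, chosen after its value was seen, had reconstructed means of 1210 with shRNA 2, 1981 with shRNA 1 and 1840 with scramble, and in the authors' deposited table it fell by 0.60 on the log2 scale with shRNA 2 (adjusted p = 2.96e-06).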
